A study of Mus musculus with 6 samples.

Results

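Mmp8, Timp1 and Cpz encode secreted proteins that cut other proteins or restrain the enzymes that do so. They were followed in the hippocampus of db/db mice on a lncRNA and mRNA array, each by 1 probe of 60 bases, which makes 3 of the 90752 probes that are not controls. The 3 probes were taken because the study lists them, with these gene symbols, among the probes that changed after DMDD treatment. Their difference between the groups was therefore used to choose them and is given below as a description, with no test. Counts of members past a threshold are descriptions too, printed beside the share of all probes past it.

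Mmp8 is the neutrophil collagenase, a zinc-dependent matrix metalloproteinase that neutrophils store in granules and release as an inactive proenzyme, and that cleaves fibrillar collagens. Timp1 is a tissue inhibitor of metalloproteinases, a small secreted protein that occupies the active site of these enzymes, and in the brain it is known as a gene that reactive astrocytes induce. Cpz, carboxypeptidase Z, removes basic residues from the C-terminal end of its substrates, carries a frizzled-like cysteine-rich domain and is held in the extracellular matrix.

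All 6 samples were hippocampi of male db/db mice at the age of 14 weeks. These mice lack a working leptin receptor and become obese and diabetic, so the mutation is shared by both groups, and lean db/m mice were not on these arrays. In the db/db-vehicle group, 3 mice were given the vehicle alone, and in the db/db-DMDD group, 3 mice were given DMDD at 50 mg/kg. DMDD is a quinone from the root of Averrhoa carambola. Both groups were dosed by gavage once a day for 28 days. Each mouse had 1 array with a single dye, Cy3. The arrays are called V1, V2 and V3 for vehicle and D1, D2 and D3 for DMDD, after the replicate numbers in the labels. V1, V2, V3 and D1 were on slide 1, and D2 and D3 were on slide 2. The labels count 3 mice in each group, and the spread between arrays holds both the mice and the assay. Between 65405 and 71323 probes per array were well above background, no spot was saturated, and any 2 arrays correlated at 0.989 to 0.996 over the tested probes. The probes of hippocampal markers could not be named from the sources used here, so the tissue label was not checked against markers. In whole tissue, fewer cells of a type and less RNA per cell cannot be told apart.

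The probe sequences are shown because each holds a hexamer that matches a polyadenylation signal, as many probes of the array do. The place of the probes in their transcripts was not determined. A stretch of 30 bases of each probe follows, 5′ to 3′, with that hexamer in capitals.
Mmp8: cttttgtgaaaaAATAAAgttgttattctg
Timp1: cttagatggtgaAATAAAgaactatcagac
Cpz: cctctgaagcttATTAAAgtatgttcaccc
The Mmp8 stretch covers bases 27 to 56 of its probe, the Timp1 stretch bases 19 to 48 and the Cpz stretch bases 23 to 52. AATAAA is the usual polyadenylation signal and ATTAAA its common variant. The hexamer was followed by 16 further bases in the Mmp8 probe, 24 in the Timp1 probe and 20 in the Cpz probe. Of all 90752 probes, 14.7% hold AATAAA and 5.61% hold ATTAAA in the sense of the probe. The Timp1 and Cpz probes also end in a run of 6 A, as do 1.80% of all probes. The longest run of bases that a member probe shared with any other probe was 17 bases for Mmp8 and 15 bases each for Timp1 and Cpz. No other probe of the array therefore overlapped any of the 3 by more than this, to stand as a check on it. Whether the array holds a further probe elsewhere in the same transcripts was not determined.

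The signals of all 3 genes lay close to background. Each probe was printed at 2 places on every array, which gave 12 spots per gene. The raw mean signal of the Mmp8 spots ran from 36.8 to 69.1 scanner units over a local background of 18 to 20. The Cpz spots ran from 36.3 to 61.4 over a background of 17 to 22, and the Timp1 spots from 37.1 to 115.0 over a background of 18 to 20. All 12 spots of Mmp8, all 12 of Timp1 and 11 of 12 of Cpz were well above background, and none was marked as an outlier. The remaining Cpz spot was on V1, where the other Cpz spot was above background.

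Mmp8 was higher on 2 of the 6 arrays, 1 in each group. Its quantile-normalized log2 signal was 5.16, 4.39 and 4.33 on V1, V2 and V3, and 5.28, 3.78 and 3.71 on D1, D2 and D3. The highest array of all was therefore D1, the lowest were the other DMDD arrays, and the groups overlapped. The group means were 4.63 ± 0.46 (SD, n = 3) with vehicle and 4.26 ± 0.89 (SD, n = 3) with DMDD. The log2 difference, DMDD minus vehicle, was -0.37 with a standard error of 0.46 from the limma fit, which is smaller than the SD of either group. Without D1, the difference was -0.89 (standard error 0.27), with all vehicle arrays on slide 1 and all DMDD arrays on slide 2.

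Timp1 had the widest range of the 3 genes, 2.17 on the log2 scale or 4.50-fold over the 6 arrays. Its log2 signal was 4.83, 4.32 and 3.06 on V1, V2 and V3, and 5.23, 3.997 and 3.90 on D1, D2 and D3. As for Mmp8, D1 was the highest array and V1 the next, but the lowest was V3, well under the DMDD arrays. The group means were 4.07 ± 0.91 (SD, n = 3) with vehicle and 4.38 ± 0.74 (SD, n = 3) with DMDD. The log2 difference of 0.31 (standard error 0.53) was smaller than either group's SD. It turned to -0.20 without V3 and to -0.12 without D1.

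Cpz ran the opposite way to Mmp8 across the arrays. Its log2 signal was 3.28, 4.25 and 4.56 on V1, V2 and V3, and 3.72, 4.70 and 4.99 on D1, D2 and D3. The arrays lowest for Cpz, V1 and D1, were those highest for Mmp8 and Timp1. The group means were 4.03 ± 0.66 (SD, n = 3) with vehicle and 4.47 ± 0.67 (SD, n = 3) with DMDD. The log2 difference was 0.44 (standard error 0.43), again smaller than the SD of either group. It was 0.82 without D1 and 0.07 without V1.

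**Figure D1:**
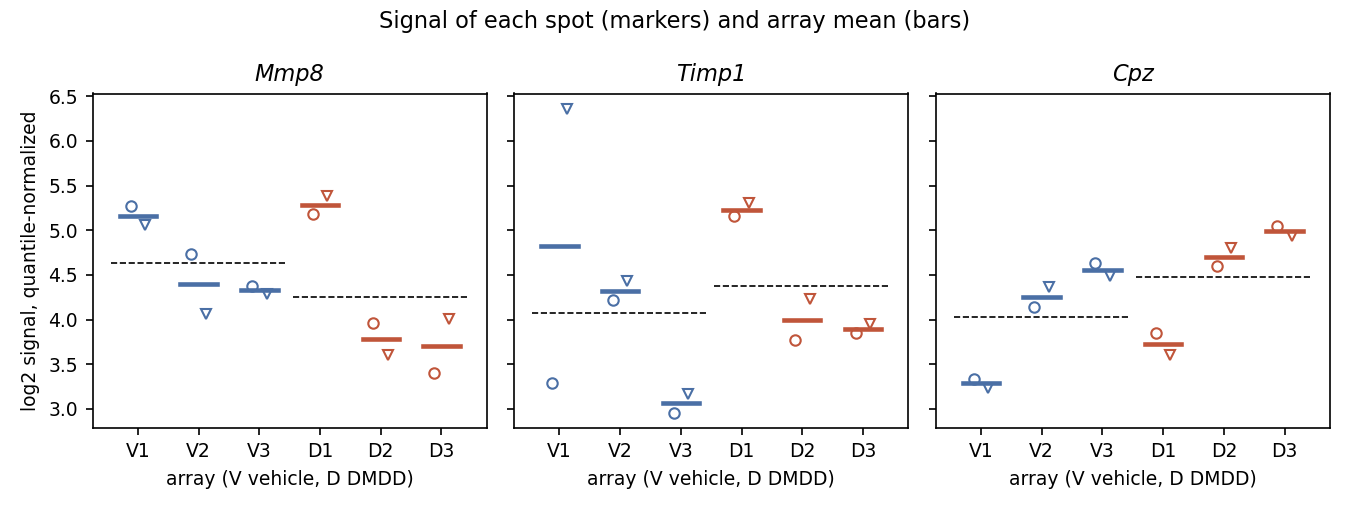
Quantile-normalized log2 signal (y axis) of Mmp8, Timp1 and Cpz on the 3 vehicle arrays (V1 to V3, blue) and the 3 DMDD arrays (D1 to D3, red); circles and triangles are the 2 spots of the probe, short bars the array means and dashed lines the group means. The groups overlap for each gene, and the Timp1 spots of V1 lie far apart, at 3.29 and 6.36.

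Over all 67732 probes that could be tested, 622, or 0.918%, had an unadjusted p under 0.05 by limma together with an absolute log2 difference of at least 0.5. These are the thresholds the study set for its list, called the study's thresholds here. For its candidate genes the study asked for a larger difference. Of all tested probes, 0.385% passed with DMDD higher and 0.533% with DMDD lower. With the labels as given, 0 of the 3 members passed. After Benjamini-Hochberg adjustment, 1 probe (0.00148%) kept a p under 0.05, and it was no member. All DMDD arrays lay above all vehicle arrays for 3.24% of the tested probes and below them for 3.83%, and this held for 0 of the 3 members. Since the members were chosen on this contrast, nothing is read from these counts.

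With the mean of both spots, the 6 arrays divided in the same way for all 3 genes. V1, V2 and D1 lay above V3, D2 and D3 for Mmp8 and Timp1 and below them for Cpz. For Mmp8 the gap was narrow, 4.39 on V2 against 4.33 on V3, and it did not hold throughout. At one of the 2 Mmp8 spots, V2 was at 4.06, under V3 at 4.28. Scaling by the 75th percentile in place of quantile normalization also put V2, at -4.24, under V3, at -4.22. For Timp1 the division rested on 1 bright spot of V1, described below, without which V1 was at 3.29, under D2 and D3. When V3 and D1 were left out, 2 arrays remained on each side. Those were V1 and V2 on slide 1 and D2 and D3 on slide 2, so slide and treatment cannot be told apart there. Mmp8 was then at 4.78 ± 0.55 (SD, n = 2) with vehicle and 3.74 ± 0.05 (SD, n = 2) with DMDD, a log2 difference of -1.04 (standard error 0.29). Timp1 was lower by a log2 difference of -0.63 (standard error 0.20), against the positive value with all arrays. Cpz was higher by 1.08 (standard error 0.36). All 3 members were then past the study's thresholds, as were 2.61% of all tested probes, 0.785% with DMDD higher and 1.82% with DMDD lower. With so few arrays, DMDD lay wholly above vehicle for 19.1% of the tested probes and wholly below for 20.3%, and the 3 members were among these. The arrays left out are those whose values run against the contrast the members were chosen on, so these counts are a description only. For Timp1 they also rest on the bright spot, without which the difference was 0.14 (standard error 0.37).

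Setting V3 among the DMDD arrays and D1 among the vehicle arrays gave groups that did not overlap for any of the 3 genes, which for Timp1 held only with the bright spot of V1. The log2 differences were -1.01 for Mmp8 (standard error 0.28), -1.14 for Timp1 (standard error 0.32) and 0.999 for Cpz (standard error 0.25). All 3 members were past the thresholds in that division, as were 1.36% of the tested probes, 0.762% with DMDD higher and 0.599% with DMDD lower. DMDD lay wholly above vehicle for 4.89% and wholly below for 4.44%. By limma, 3184 probes had an unadjusted p under 0.05 there, and none of the 67732 passed after adjustment. From these signals alone it cannot be told to which group V3 and D1 belong. This division is the one by which the members' own values separate, so their separation in it is a description only.

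Slide and treatment overlapped in part. Within slide 1, where D1 stands alone against the 3 vehicle arrays, the log2 difference was 0.65 for Mmp8 (standard error 0.34), 1.16 for Timp1 (standard error 0.65) and -0.31 for Cpz (standard error 0.49), from a fit with slide as a fixed block. These values describe 1 DMDD array, and their standard errors take its spread to be that of the vehicle arrays among themselves and of D2 against D3. The sign for Mmp8 and Cpz was the reverse of that over all arrays. Slide 2 held DMDD arrays only and gives no comparison of its own, so for D2 and D3 slide and treatment cannot be told apart. The same holds for every comparison that leaves out D1, with or without V3.

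**Figure D2:**
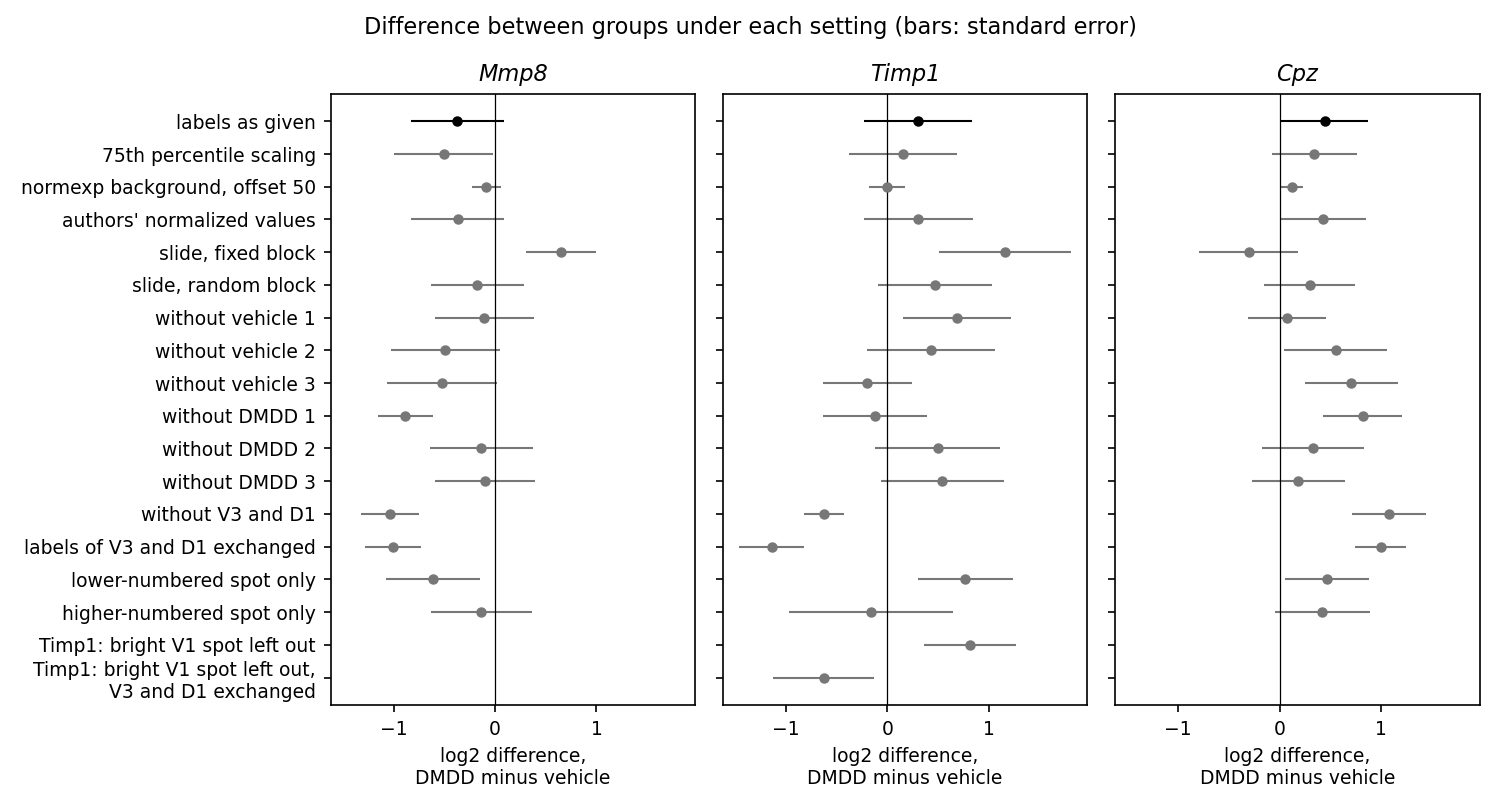
Log2 difference, DMDD minus vehicle (x axis), of each gene under each setting (y axis), with the standard error as a bar; settings are those described in the text. Mmp8 stays below 0 and Cpz above 0 in every setting plotted except slide as a fixed block, while Timp1 lies on both sides of 0, from -1.14 to 1.16.

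The replicate spots gave a measure of precision within an array. The value of a probe is their mean, so the gap between them is not independent of how the genes were chosen. In 17 of the 18 pairs of spots of the 3 genes, the spots of an array differed by 0.10 to 0.67 on the log2 scale. The scanner software's own error for a spot was of like size, 0.15 to 0.30 on the log2 scale for Mmp8 and for Timp1 and 0.16 to 0.35 for Cpz. The 6 arrays spanned 1.58 for Mmp8 and 1.71 for Cpz on the same scale, a range that holds the mice, the labelling and hybridization and the slides, none of which the spots of 1 array measure. On the Mmp8 probe the spots were farthest apart on V2, by 0.67, and on D3, by 0.60.

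The exception was Timp1 on V1. There the processed signal, which has the background subtracted, was 9.30 at one spot and 75.5 at the other, a log2 difference of 3.07 after normalization or 8.37-fold. Among the 7398 probes of like mean signal on that array, within 0.5 on the log2 scale, the median difference between spots was 0.20, and 20 probes, or 0.270%, Timp1 included, had a pair at least this far apart. Over all signals, 60 of 63751 tested pairs on V1 differed by more than 3 on the log2 scale, and 8 to 61 did on the other arrays. The bright spot had a raw mean signal of 115.0 with a pixel SD of 28.7, and its background of 19 was close to the 18 at the dim spot. The 14 spots around it had a median processed signal of 71.4 on V1 and of 43.4 to 52.5 on the other 5 arrays. Their part in the bright spot was not tested.

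With the labels as given, the direction of Timp1 depended on which of the 2 spots of V1 was kept. With the bright spot left out, V1 fell from the second highest Timp1 array to the second lowest, at 3.29. The vehicle mean was then 3.56 ± 0.67 (SD, n = 3). The log2 difference was 0.82 (standard error 0.46), of the same sign as the 0.31 with both spots. With the dim spot left out in its place, V1 was at 6.36 and the log2 difference was -0.21 (standard error 0.82). Without V3 and D1, leaving out the bright spot turned the sign of the difference, from -0.63 to 0.14. With the labels of V3 and D1 exchanged, it took the difference from -1.14 to -0.63 (standard error 0.50), with the sign unchanged. The groups of the exchanged division then overlapped, and Timp1 was no longer past the study's thresholds. The files do not say which of the 2 spots carries the level of Timp1 in that mouse.

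**Figure D3:**
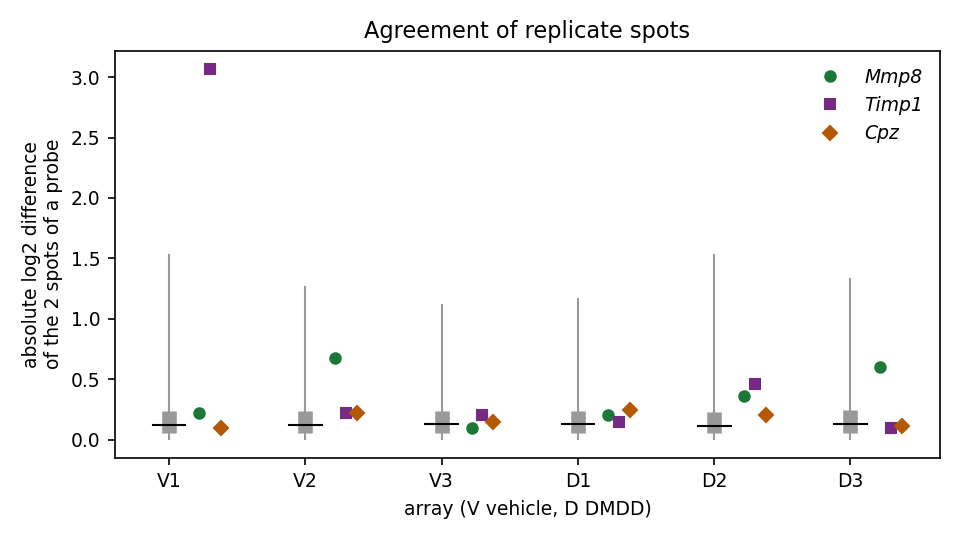
Absolute log2 difference between the 2 spots of a probe (y axis) on each array (x axis); over the tested probes, thick grey bars span the quartiles, thin grey lines the percentiles 1 to 99 and black ticks mark the medians. Timp1 on V1, at 3.07, stands above the line of its array, and the other 17 pairs of the 3 genes lie at or below 0.67.

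Only 35 probes for 33 mRNAs carry a gene symbol in the sources used here, all from the study's list, so other genes of these families could be followed only where that list holds them. Of 28 genes of the metalloproteinase and TIMP family, Mmp8 and Timp1 were named, and of 23 metallocarboxypeptidases, Cpz alone. Of 31 ADAM and ADAMTS genes, 20 collagens and other matrix substrates, 25 Wnt and frizzled-type genes and 4 partners of TIMP1, 0 were named, and of 14 genes of reactive astrocytes, only Timp1.

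Since Mmp8 is a product of neutrophils, the other genes of that cell type were placed beside it. Of 17 neutrophil genes, 3 had a named probe, and all 3 came from the study's list, so they share its choice. Elane, the neutrophil elastase, had a log2 signal of 4.85, 4.43 and 4.12 on V1, V2 and V3 and of 4.72, 4.11 and 3.88 on D1, D2 and D3. Retnlg, a resistin-like secreted protein of myeloid cells, was at 7.96, 8.02 and 7.46 with vehicle and at 7.90, 6.84 and 6.91 with DMDD. Gpr97, an adhesion receptor of granulocytes whose current symbol is Adgrg3, was at 4.64, 3.99 and 3.79 with vehicle and at 4.50, 3.26 and 3.70 with DMDD. In each of these genes D1 was the highest of the DMDD arrays and the groups overlapped, as for Mmp8. This was not particular to neutrophil genes. It also held for genes of the study's list outside the 17, such as Hif3a, Jak3 and Gsdma3. In others, such as Kif27 and Cfap44, D1 was the lowest of the DMDD arrays. The log2 difference was -0.23 for Elane (standard error 0.27), -0.60 for Retnlg (standard error 0.31) and -0.32 for Gpr97 (standard error 0.35). Each of them was above background on every array. Of 5 T cell genes, 1, Cd3g, was named, with a log2 signal of 4.50, 4.22 and 3.70 on V1, V2 and V3 and of 4.58, 4.07 and 3.78 on D1, D2 and D3. The part of neutrophils in the Mmp8 values was not tested.

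**Figure D4:**
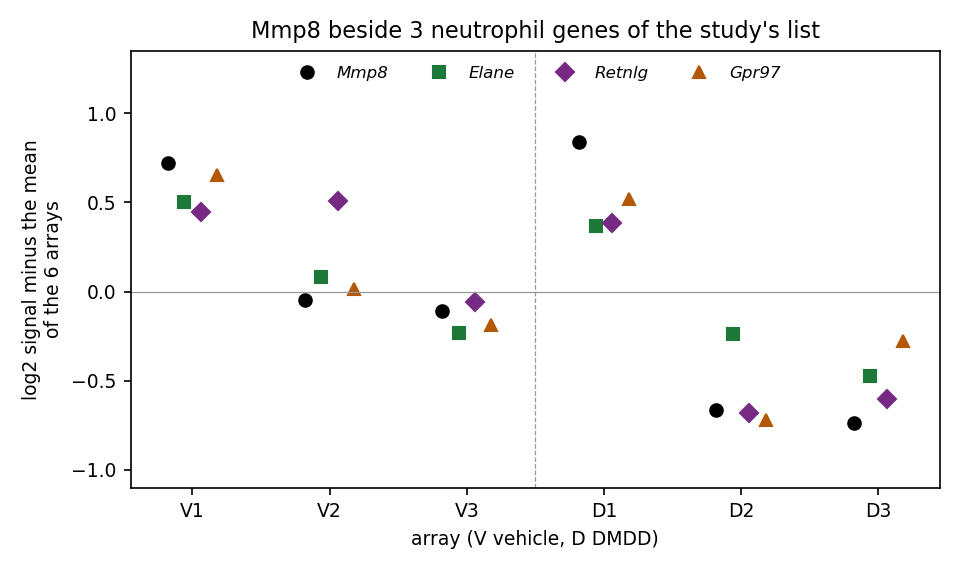
Log2 signal minus the gene's mean over the 6 arrays (y axis) of Mmp8 and of the neutrophil genes Elane, Retnlg and Gpr97 on each array (x axis; V1 to V3 vehicle, D1 to D3 DMDD, parted by the dashed line). All 4 genes lie above their mean on V1 and D1 and below it on D2 and D3, as do Hif3a, Jak3 and Gsdma3 of the study's list, which are not drawn.

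Among the named genes, those most like each member over the 6 arrays were found by Pearson's r of the log2 signal, given as a measure of likeness with no test, since all points share the arrays and all genes the list. Elane (r = 0.943), Gpr97 (r = 0.937) and Fam187b (r = 0.894) were most like Mmp8. Of all tested probes, 194 were closer to Mmp8 than Elane was. For Cpz the closest were Ldlrad2 (r = 0.962), Unc5cl (r = 0.953) and Rgl2 (r = 0.939), with 136 tested probes closer than Ldlrad2. For Timp1 the closest was Tcf23, a basic helix-loop-helix factor, at r = 0.997, with 0 of the tested probes closer, followed by Ces4a (r = 0.975) and by Cd3g (r = 0.952), a chain of the T cell receptor complex. Without the bright Timp1 spot of V1, these values became 0.684 for Tcf23, 0.626 for Ces4a and 0.544 for Cd3g. The log2 signal of Tcf23 was 4.26, 3.89 and 3.04 on V1, V2 and V3 and 4.64, 3.66 and 3.56 on D1, D2 and D3. On V1 Tcf23 was thus high, as was the mean of the 2 Timp1 spots. Tcf23 was picked with the bright spot included, so this does not tell which spot carries the level of Timp1.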

How the data were processed

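Hippocampal RNA of 6 db/db mice, 3 in each group, was measured with 1 array per mouse, and samples were grouped by their labels. The authors deposited the scanner intensity of each spot, not normalized between arrays, from Feature Extraction, version 12.0.3.1 per the file headers and 10.7 in the submitters' processing notes. They also deposited a table of quantile-normalized log2 values, used as an alternative. Processed intensities were taken to log2 and quantile-normalized with limma 3.58.1 in R 4.3.3, without control and outlier spots, and the spots of a probe were averaged. A linear model (lmFit, then eBayes; two-sided p, Benjamini-Hochberg) was fitted to the 67732 probes measured on every array and well above background on 3 or more. The methods name ANOVA with Tukey's test for the data in general and no test for the arrays in particular, and the legend of the array figure, which also covers qRT-PCR, names Student's test, used as an alternative. On simulated data for this comparison (67732 probes), the fit found 169 of 200 probes changed by 2 on the log2 scale after adjustment, together with 7 that were unchanged. The number of arrays limits the precision.

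The members and gene lists were chosen with earlier results of these data known, as was the exchange of labels, which an earlier comparison with the study's list had pointed to and which was not repeated here. Genes were named by fixed lists and by likeness to the members. Settings on single spots were chosen after seeing the data. The planned tests of gene lists were not run, because the sources used here name the probes of the study's list only, 35 of them for mRNAs. The fold changes and p-values of that list were not used. Figures used Python 3.11.15 and matplotlib 3.10.9.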

Additional observations from a re-analysis of the deposited data

How the results depend on the processing

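Over the alternatives tried, the log2 difference of Mmp8 (19 alternatives) and of Cpz (19) changed sign in 1 each, slide as a fixed block (0.65 and -0.31), and that of Timp1 in 8 of 23. For Timp1 the values that moved by more than the spread between arrays were 1.16 with slide as a fixed block, -0.63 without V3 and D1, -1.14 with their labels exchanged and -0.63 with the labels exchanged and the bright spot of V1 left out. With normexp background correction, which here added an offset of 50 to every signal, all 3 shrank. They came to -0.09 for Mmp8, 0.12 for Cpz and -0.0015 for Timp1. The spread shrank with them, as an offset of this size narrows the log2 scale of dim probes. Standard errors fell from 0.46 to 0.14 for Mmp8, from 0.43 to 0.11 for Cpz and from 0.53 to 0.18 for Timp1. With each array left out, Mmp8 ranged from -0.89 (without D1) to -0.10 (without D3), Cpz from 0.07 (without V1) to 0.82 (without D1) and Timp1 from -0.20 (without V3) to 0.68 (without V1).

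Over the tested probes, no pairing of the samples by replicate number was seen. The deviations of same-numbered arrays from their group means correlated at -0.04, -0.25 and -0.19, and no array correlated best with its own number. Such deviations cancel within each group, so these correlations are not independent and cannot exclude a pairing. With a replicate block the differences stayed at -0.37, 0.44 and 0.31, with standard errors of 0.19 for Mmp8, 0.11 for Cpz and 0.24 for Timp1, and 770 probes passed the study's thresholds, with 0 at an adjusted p under 0.05.

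The 622 probes past the study's thresholds became 21 with normexp and its offset of 50. By limma, 1669 probes had an unadjusted p under 0.05 there, against 2097 in the main fit. The count past the thresholds was 1440 with no filter on dim probes and 318 with probes well above background on all 6 arrays. It was 1154 with slide as a fixed block and 1768 without V3 and D1. It was 958 from the spot with the higher feature number alone (chosen after seeing the data) and 240 by Student's test. With each array left out the count ranged from 525 (without D3) to 2145 (without D1), with 1917 without V2 and 942 without D2. Scaling by the 75th percentile gave 78 higher and 849 lower probes in place of 261 and 361. The 1 probe at an adjusted p under 0.05 became 0 with normexp, the stricter filter, slide as a fixed block, the replicate block, V3 and D1 left out or exchanged, and Student's test, with 1669 to 4934 probes at an unadjusted p under 0.05 in these settings. The cause was not tested.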
